A study of Mus musculus with 18 samples.

Results

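Alpha-defensins are small cationic antimicrobial peptides, called cryptdins in the mouse gut, that Paneth cells at the base of small intestinal crypts store in granules and release into the crypt lumen. The mouse carries a large cluster of near-identical Defa genes, and their precursors are cut to the active peptide by the protease matrilysin, encoded by Mmp7. Paneth cells belong to the secretory lineage, which depends on the transcription factor Atoh1, and Wnt signalling is known to promote both Paneth cell maturation and defensin transcription. Transcripts of 8 alpha-defensin genes were examined here: Defa3, Defa17, Defa20, Defa24, Defa29, Defa32, Defa38 and Defa42. They were picked by gene symbol from 26 Defa symbols in the deposited tables, with earlier results of these data known. Because reads are shared between such similar genes, the sum over all Defa symbols was examined beside them.

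The study asked what loss of MTGR1, a transcriptional co-repressor encoded by Cbfa2t2, does to intestinal crypts and to the enteroids grown from them. Duodenal crypts came from 3 WT (Mtgr1+/+) and 3 Mtgr1-/- mice of 8 to 12 weeks, male and female cohoused littermates. The null allele is present in every cell of the animal, and no drug or other agent distinguished the groups. From each mouse, RNA was taken from crypts (day 0), from enteroids after 24 h (day 1) and from enteroids after 72 h (day 3), giving 6 groups of 3 libraries. The tables list 17759, 17423 and 17612 genes for crypts, day 1 and day 3. Of the 8 alpha-defensins, 7 were listed in crypts and at day 1, and 8 at day 3, since Defa32 is listed at day 3 only. All those listed passed the filter on low values, a mean normalized count of at least 10 in the table. Normalized counts are gene counts divided by 1 factor per library, set separately for each time point, so genotypes were tested within a time point and levels across time are given as CPM, in which every library is scaled to the same total, or as shares.

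The libraries held between 22035316 and 28621990 reads in the 16 libraries where reads could be recovered from the values. The targeted gene did not check the labels: Cbfa2t2 stood at 614, 523 and 595 normalized counts in WT crypts and at 697, 466 and 534 in crypts labelled Mtgr1-/-. Its limma log2 fold change was -0.05, 0.37 and 0.06 at the 3 times, with adjusted p of 0.917, 0.0557 and 0.686. Whether these reads cover the deleted part of the gene is not known, so genotypes below are those of the labels. The crypt library of WT mouse 3 stood apart in immune markers, whose 6 genes summed to 203 CPM against 21.2 and 23.6 in the other WT crypts. Their part in the results was not tested. Without that library the log2 difference of the Defa sum in crypts was -5.07, against -5.23 with it.

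The sequences of the 8 genes fall into 3 kinds. All 8 lie on mouse chromosome 8 between 21095074 and 21735471 (GRCm38, GENCODE release 21), each with 2 exons, and Defa29, Defa38 and Defa42 lie on the minus strand. The coding sequences of Defa3 and Defa17 were identical, and so were those of Defa20 and Defa32. Defa24 was 95.7% identical to Defa3 and 82.9% to Defa20. Defa29, Defa38 and Defa42, with 351 coding bases instead of 282 or 288, were 96.3% to 97.4% identical to each other but only 66.0% to 67.7% identical to the other 5. These 3 belong to what are known as cryptdin-related sequences, which carry a different spacing of cysteines in the mature peptide. The last 105 coding bases of 1 gene of each kind, and of Defa3, show this, with in-frame TGT and TGC codons (cysteine) in capitals:
Defa24: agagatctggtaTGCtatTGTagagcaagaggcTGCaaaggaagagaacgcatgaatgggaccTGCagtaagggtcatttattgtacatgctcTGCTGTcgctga
Defa3: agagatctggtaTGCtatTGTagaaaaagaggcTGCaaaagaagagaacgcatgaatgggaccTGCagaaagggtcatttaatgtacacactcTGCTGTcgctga
Defa20: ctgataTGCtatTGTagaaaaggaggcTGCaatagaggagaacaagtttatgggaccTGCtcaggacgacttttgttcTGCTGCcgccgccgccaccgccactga
Defa38: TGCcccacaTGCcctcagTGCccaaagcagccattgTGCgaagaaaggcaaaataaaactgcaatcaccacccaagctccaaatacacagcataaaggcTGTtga
Defa24, Defa3 and Defa20 each held 6 such codons in the stretch, and Defa38 held 5. The stretch of Defa38 begins on a TGC and codons before it were not counted, so its count does not show fewer cysteines in the mature peptide. Over these bases Defa3 differed from Defa24 at 7 positions, Defa29 differed from Defa38 at 2, and Defa42 from Defa38 at 5.

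This similarity bears on every value for a single gene. The authors' reads were 50 bases long, so each gene was cut into all windows of 50 bases and each window looked up in all GENCODE transcripts. Of the windows of Defa24, 71.9% occurred in no other gene, followed by Defa29 with 56.6% and Defa38 with 44.4%. The share was 8.05% in Defa17 and 7.76% in Defa3, which share most windows with each other. Defa20, Defa32 and Defa42 had 0.0% of their windows to themselves. Every window of Defa42 was also found in Defa43, and Defa20 shared 86.7% of its windows with Defa32 and 86.4% with Defa2. How counts are split within Defa3 and Defa17, within Defa2, Defa20, Defa32 and Defa33, and within Defa42 and Defa43 therefore rests largely on the quantifier's estimate, and the sums over these groups are given beside the single genes.

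Promoter sequence was at hand for 4 of the 8 genes in RefSeq (GRCm38.p6), namely Defa20, Defa32, Defa38 and Defa42. The windows below, each 90 bases followed by TATAAA, are shown because Defa20 and Defa32 differ from Defa38 and Defa42 in the letters TCAAAG. These letters are the reverse complement of CTTTGA and the core of a TCF/LEF site, through which Wnt signals are known to act. No promoter of Defa3, Defa17, Defa24 or Defa29 was at hand, so a difference between the kinds is not shown. Capitals mark TCAAAG and TATAAA:
Defa20 (chr8:21509137-21509232, plus strand): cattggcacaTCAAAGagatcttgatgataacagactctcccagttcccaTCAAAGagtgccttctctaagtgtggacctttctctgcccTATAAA
Defa38 (chr8:21096119-21096214, minus strand): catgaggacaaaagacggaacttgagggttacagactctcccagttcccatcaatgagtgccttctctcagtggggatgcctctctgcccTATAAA
Defa42 (chr8:21456586-21456681, minus strand): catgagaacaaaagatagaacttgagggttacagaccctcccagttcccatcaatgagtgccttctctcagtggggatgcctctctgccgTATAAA
The Defa32 window (chr8:21528911-21529006, plus strand) had 0 differences from that of Defa20, Defa38 differed from Defa20 at 19 of 96 bases, and Defa42 differed from Defa38 at 5. CTTTGA or TCAAAG occurred 2 times in the promoters of Defa20 and Defa32 and 0 times in those of Defa38 and Defa42, over 250 bases before to 50 after the start. Of all 32851 promoters listed there, 16.0% held it, and of the 16 Defa promoters 13 did. TATAAA or TTTATA was in 15 of 16 Defa promoters and 13.6% of all, and the E-box CAGCTG in 1 of 16 and 16.3% of all. A match of letters is a description and not a measured site.

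In WT crypts alpha-defensins took up a large part of the library. The Defa sum was 0.705%, 0.763% and 1.00% of all normalized counts in WT mice 1, 2 and 3. In Mtgr1-/- mice 1 and 3 it was 0.00679% and 0.00491%, while Mtgr1-/- mouse 2 kept 0.326%. All 3 Mtgr1-/- crypt libraries lay below the 3 WT libraries, and mouse 2 stood well above the other 2 of its group. As normalized counts, the sum was 176731, 194050 and 258653 in WT crypts and 1633, 77485 and 1328 in Mtgr1-/- crypts. Relative to the WT mean these were 0.778%, 36.9% and 0.633%. The log2 fold change was -5.23 (SE 1.45) and did not pass the test in limma (adjusted p = 0.102). In bulk RNA, fewer Paneth cells and less defensin RNA per Paneth cell cannot be told apart.

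Among single genes in crypts, Defa24 was the most abundant per kilobase of transcript, and it holds the most sequence of its own. Its normalized counts were 42400, 46892 and 65876 in WT crypts and 408, 17019 and 288 in Mtgr1-/- crypts. Defa3, next in level per kilobase, stood at 22486, 24581 and 36238 in WT and at 276, 9716 and 193 in Mtgr1-/- crypts. For both genes the groups did not overlap, and mouse 2 carried most of what the Mtgr1-/- group held. Defa17, the coding twin of Defa3, was at 2842, 3467 and 5875 in WT crypts against 31.1, 1466 and 16.3. Defa20 stood at 1213, 795 and 388 in WT crypts and at 20.7, 220 and 29.5 in Mtgr1-/- crypts. Its order among WT mice was the reverse of that of the other 6 genes listed in crypts, with mouse 3 lowest, and the sum of Defa2, Defa20, Defa32 and Defa33 had the same order (8351, 5670 and 4124).

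The 3 cryptdin-related genes were likewise lower in every Mtgr1-/- crypt library than in any WT one. Defa29 was at 13904, 15861 and 19470 in WT crypts and at 99.8, 6959 and 91.5 in Mtgr1-/- crypts. Defa38 was at 5315, 6857 and 9920 against 33.0, 3095 and 29.5. Defa42 was at 8421, 10470 and 15211 in WT crypts, and in Mtgr1-/- crypts it was listed at 0 in mice 1 and 3 and at 3678 in mouse 2. These zeros do not show absence of the transcript kind, since Defa42 and Defa43 together stood at 111, 7304 and 150 in the same libraries. Per kilobase of transcript, mean WT crypt levels ran from 123444 for Defa24 and 67727 for Defa3 through 32306 for Defa29, 23293 for Defa42 and 20980 for Defa38 to 10230 for Defa17 and 1879 for Defa20. Neighbouring genes in the middle of this order overlapped, with Defa29 at 27370 to 38327, Defa42 at 17255 to 31170 and Defa38 at 15142 to 28263 per kilobase across mice. Defa38 is annotated with its 351 coding bases only, against 508 transcript bases for Defa29 and 488 for Defa42, so these values also depend on the annotated length.

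In crypts none of the 7 listed genes passed the test, although all 7 had every Mtgr1-/- library below every WT library. Of all genes tested in crypts, 3.15% were called lower and 13.5% had such non-overlapping groups. The 7 log2 fold changes lay between -9.48 (Defa42) and -3.78 (Defa20), with a median of -5.34 against 0.0076 over all genes. The value of Defa42 rests on 2 libraries at 0 and moved with the pseudocount, to -11.70 at 0.1 and -7.48 at 8, and was -3.22 in edgeR on all libraries, while the sum of Defa42 and Defa43 had -5.35. In limma their unadjusted p lay between 0.00371 and 0.0163, all 7 under 0.05, and their adjusted p between 0.0644 and 0.147. The calls turned on Mtgr1-/- mouse 2. Without Mtgr1-/- mouse 2, all 7 genes were called lower and the Defa sum differed by -7.13 on the log2 scale (adjusted p = 0.000104 in limma). With library weights 7 genes were called as well and the sum stood at -5.91 (adjusted p = 0.00366 in limma). The estimate of those weights in crypts did not converge, and it gave WT mouse 1 a weight of 8.47 against 0.415 for Mtgr1-/- mouse 2 and 0.256 for WT mouse 3, so little can be read from it. The count models compare group means of counts rather than of logs, and gave a smaller difference for the sum, -2.98 in both edgeR and DESeq2 on all libraries. There edgeR called 0 of the 7 genes and DESeq2 called 1, Defa20. Among the alternatives run, the Defa sum in crypts passed the test only when mouse 2 was left out or libraries were weighted.

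**Figure D1:**
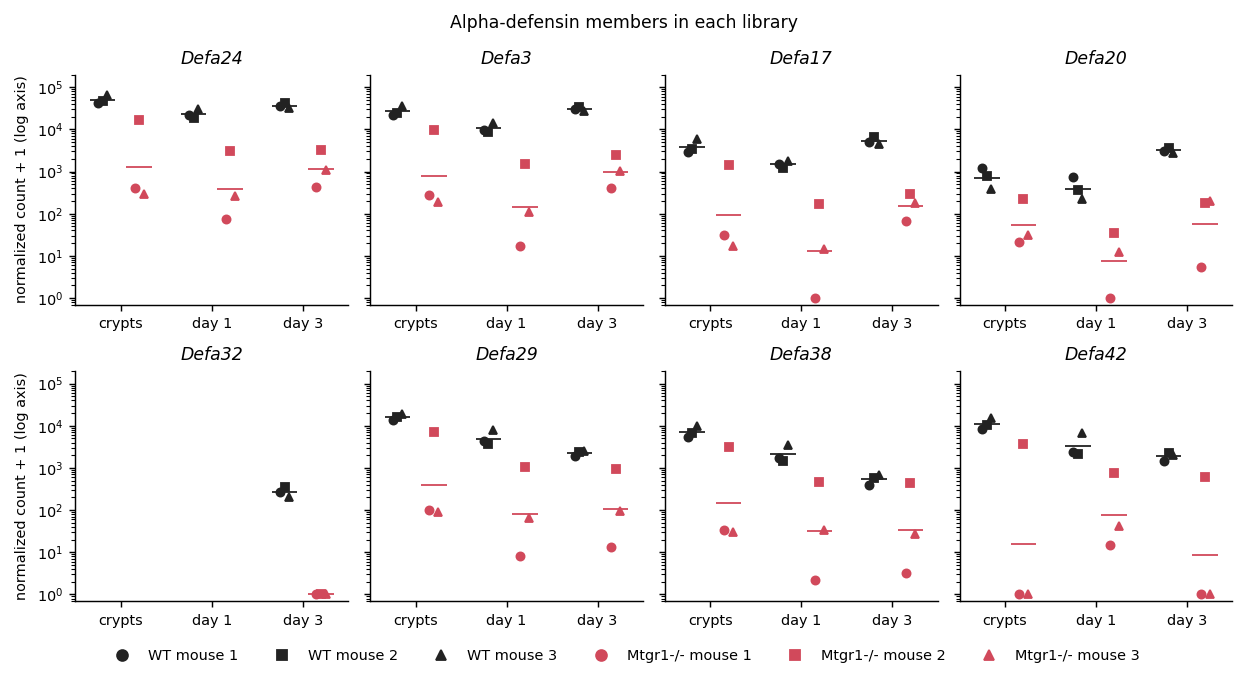
Normalized count plus 1 (log axis) of each of the 8 alpha-defensins in each library, by time of collection, with WT in black and Mtgr1-/- in red, a marker shape per mouse and a bar at the mean of the logs. Mtgr1-/- mouse 2 (squares) is the highest of its genotype in nearly all panels, and Defa38 at day 3 is the one panel where a Mtgr1-/- library (442) exceeds a WT library (397).

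After 24 h in culture the Defa sum was 0.272%, 0.244% and 0.435% of the library in WT enteroids. In Mtgr1-/- enteroids it was 0.000505%, 0.0441% and 0.00319%, so mouse 2 was again the highest. As normalized counts the sum was 67852, 56020 and 102779 in WT and 157, 11965 and 995 in Mtgr1-/- enteroids. It fell by 5.89 on the log2 scale (SE 1.3, adjusted p = 0.00572 in limma). The size, though not the call, turned on single libraries, with -4.40 without Mtgr1-/- mouse 1, -7.52 without mouse 2 and -4.12 in both edgeR and DESeq2. All 7 listed genes were lower, with log2 fold changes between -6.79 (Defa17) and -5.39 (Defa42), a median of -5.91 and adjusted p between 0.0034 and 0.0141 in limma. At this time 28.9% of all genes tested were called lower and 33.9% had every Mtgr1-/- library below every WT library, as all 7 alpha-defensins did.

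The values behind these calls show how far the genes dropped outside mouse 2. Defa24 was at 21613, 18580 and 30331 in WT day 1 enteroids and at 72.3, 3058 and 268 in Mtgr1-/- ones. Defa3 was at 9510, 8652 and 14419 in WT and at 16.3, 1484 and 110 in Mtgr1-/- enteroids. Defa38 was at 1767, 1501 and 3592 against 1.17, 467 and 32.0. The groups did not overlap, and Mtgr1-/- mouse 1 was the lowest library for each of these genes. Defa17 and Defa20 were listed at 0 in that library. Defa29 stood at 4329, 3610 and 7798 in WT against 7.0, 1058 and 65.1, and Defa42 at 2446, 2181 and 6568 against 14.0, 755 and 40.8.

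At day 3 the Defa sum was 0.483%, 0.546% and 0.426% of the library in WT enteroids and 0.00522%, 0.0468% and 0.0149% in Mtgr1-/- enteroids. In normalized counts these were 114054, 131312 and 103117 against 1361, 13792 and 4037. The sum fell by 4.77 on the log2 scale (SE 0.68, adjusted p = 0.000664 in limma). It was -3.95 without Mtgr1-/- mouse 1 and -5.62 without mouse 2, and passed the test in both. The exact permutation p of the sum was 0.1 at each of the 3 times, which is the smallest that 3 against 3 libraries allow. All 8 genes were called lower, with log2 fold changes between -8.06 (Defa32) and -4.00 (Defa38), a median of -5.04 and adjusted p between 4.68e-06 and 0.0432 in limma. Of all genes tested, 29.1% were called lower and 34.2% did not overlap in this direction, as 7 of the 8 alpha-defensins did.

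Defa24 stood at 35712, 41292 and 32056 normalized counts in WT day 3 enteroids and at 428, 3189 and 1091 in Mtgr1-/- ones. Defa3 was at 30750, 34750 and 28016 against 410, 2433 and 1003, and Defa17 at 4940, 6510 and 4385 against 64.9, 300.2 and 174. The highest Mtgr1-/- library, mouse 2, had 8.77% of the WT mean of Defa24, 7.80% of that of Defa3 and 5.69% of that of Defa17. Defa20 was at 3103, 3700 and 2740 in WT and at 4.55, 175 and 196 in Mtgr1-/- enteroids, with mouse 3 and not mouse 2 the highest. Defa32 was at 270, 348 and 200 in WT and listed at 0 in all 3 Mtgr1-/- libraries. Defa32 had 0.0% of its windows to itself, so these zeros rest on how shared reads were assigned and set no lower limit on its fall. Its fitted log2 fold change moved with the pseudocount, from -11.38 at 0.1 to -5.10 at 8. Since Defa20 and Defa32 have the same coding sequence, the sum of Defa2, Defa20, Defa32 and Defa33 is the firmer value, with 9932, 10678 and 7505 in WT and 131, 644 and 465 in Mtgr1-/- enteroids. Its log2 difference was -4.76 (adjusted p = 0.000172 in limma).

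The cryptdin-related genes showed the weakest separation at day 3. Defa29 was at 1966, 2406 and 2484 in WT and at 12.5, 962 and 93.2 in Mtgr1-/- enteroids. Defa38 was at 397, 575 and 697 in WT and at 2.28, 442 and 25.8 in Mtgr1-/- enteroids, so mouse 2 exceeded WT mouse 1. Defa42 was at 1447, 2283 and 1992 in WT, was listed at 0 in Mtgr1-/- mice 1 and 3 and stood at 610 in mouse 2. The sum of Defa42 and Defa43 was 3056, 4768 and 3929 against 41.0, 1014 and 124. In limma the adjusted p was 0.0166 for Defa29, 0.0432 for Defa38 and 0.0153 for Defa42, and 0.00467 for the sum of Defa42 and Defa43. All 3 calls were lost in DESeq2 on all libraries, which left 5 genes lower, and without WT mouse 2, which also left 5. The call of Defa38 was the least stable, lost in 8 alternatives and kept in 11. That of Defa29 was lost in 2 and kept in 17, and that of Defa42 lost in 3 and kept in 16.

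**Figure D2:**
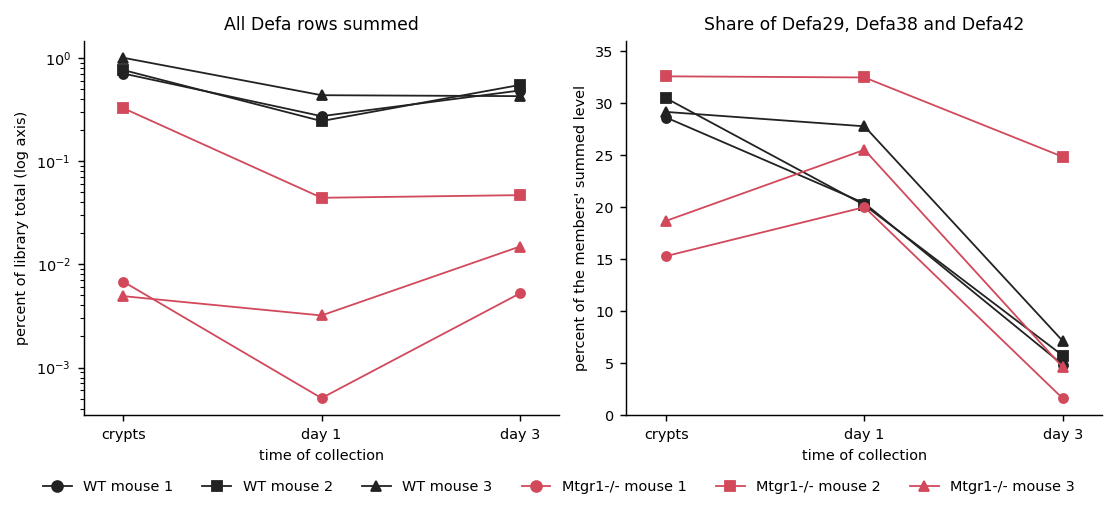
Left, all Defa counts summed as percent of the library total (log axis) by time of collection, with a line per mouse, WT in black and Mtgr1-/- in red. Right, the share of Defa29, Defa38 and Defa42 in the summed level of the listed alpha-defensins. WT mice lie between 0.244% and 1.00% of the library, and their share of the 3 cryptdin-related genes goes from 28.6% to 30.5% in crypts to 4.85% to 7.13% at day 3, while Mtgr1-/- mouse 2 still has 24.8%.

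Within WT mice the make-up of the chosen alpha-defensins changed during culture. Shares here are of these genes only, and leave out Defa39 and Defa43, which also have 351 coding bases. Defa29, Defa38 and Defa42 together made up 28.6%, 30.5% and 29.2% of the members' summed level in crypts of WT mice 1, 2 and 3. The share was 20.4%, 20.2% and 27.8% at day 1 and 4.85%, 5.73% and 7.13% at day 3, so crypts and day 3 did not overlap. Shares within a library do not depend on the normalization of the tables. In CPM, Defa38 at day 3 was 7.92%, 8.89% and 7.48% of its level in the crypts of the same mouse, Defa29 was 13.6% to 16.1% and Defa42 14.0% to 23.1%. The sum of Defa42 and Defa43 was 14.5% to 26.7%, so the drop did not hang on how those 2 genes were split.

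Among the chosen genes, Defa3, Defa17, Defa20 and Defa24 behaved otherwise in WT enteroids. The 8 chosen genes made up 54.6% to 59.1% of the Defa sum in WT crypts and 68.9% to 70.4% at day 3. The remaining Defa genes thus made up less of the sum at day 3, and the pattern is not shown for them. In CPM, Defa24 at day 3 was at 51.8% to 93.3% of its crypt level and lower in all 3 mice. Defa3 was at 82.3% to 149.7%, and higher than in crypts in 2 of 3 mice, and Defa17 at 79.5% to 198.9%. Defa20 was higher at day 3 in all 3 mice, by 2.71 to 7.52-fold. The sum of Defa2, Defa20, Defa32 and Defa33 was at 126.1% to 199.4% of its crypt level, so part of the change of Defa20 lies in the split within that group. The ranges of the ratios of Defa29, Defa38 and Defa42 did not overlap with those of Defa3, Defa17, Defa20 or Defa24. No test was made, because the time points were normalized in separate tables.

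**Figure D3:**
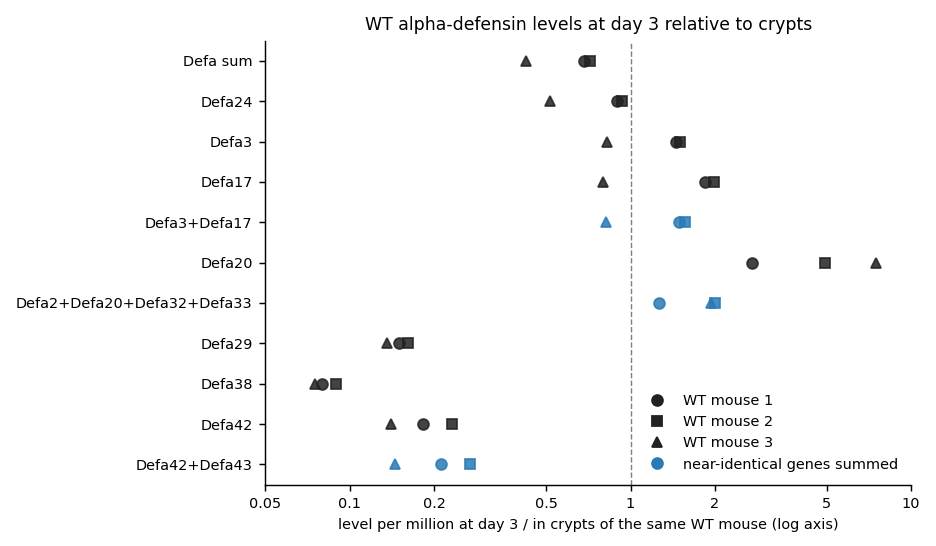
CPM at day 3 divided by that in crypts of the same WT mouse (log axis), 1 marker per mouse, with single genes and the Defa sum in black and sums of near-identical genes in blue. Defa29, Defa38 and Defa42 lie at 0.0748 to 0.231, Defa3, Defa17 and Defa24 at 0.518 to 1.99, and Defa20 at 2.71 to 7.52, above the group it shares its sequence with.

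All 7 genes listed at both times had lower CPM at day 1 than in crypts in each of the 3 WT mice, with Defa24 keeping 43.9% to 51.3% and Defa38 24.3% to 39.5%. From day 1 to day 3 the genes moved differently. Defa3 rose 1.90 to 3.84-fold in CPM and Defa20 4.43 to 12.2-fold, whereas Defa38 was at 18.9% to 36.6% and Defa29 at 31.1% to 63.6% of the day 1 level. Defa42 was at 29.6% to 99.97% of it, and the sum of Defa42 and Defa43 was higher at day 3 than at day 1 in mouse 2 (198 against 181 CPM). The Defa sum as a whole was at 32.0% to 43.4% of the crypt level at day 1 and at 42.5% to 71.7% at day 3.

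Mtgr1-/- mouse 2, the one null animal with a sizeable defensin level, differed from WT in this make-up. Its share of Defa29, Defa38 and Defa42 was 32.6% in crypts, 32.5% at day 1 and 24.8% at day 3. In Mtgr1-/- mouse 1 the share was 15.3%, 20% and 1.60%, and in mouse 3 it was 18.7%, 25.5% and 4.61%, from far lower totals. At day 3 mouse 2 had 79.5% of the WT mean of Defa38 and 42.1% of that of Defa29, but 8.77% of that of Defa24 and 7.80% of that of Defa3. It is a single animal and has no replicate. Its immune markers summed to 8.68 CPM in crypts, the lowest of the 6 crypt libraries.

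Whether the genotype difference itself changed with culture was tested in 1 limma fit of the 18 libraries, in which libraries of a mouse were allowed to correlate. For the Defa sum the log2 difference changed by -0.66 (SE 2.00, adjusted p = 0.816) from crypts to day 1, by 0.46 (SE 2.00, adjusted p = 0.879) from crypts to day 3 and by 1.12 (SE 2.00, adjusted p = 0.921) from day 1 to day 3. None of the 7 genes listed at all times passed either. Of all genes tested, 39.4%, 30.6% and 0.0309% passed in these 3 contrasts. This fit estimated a within-mouse correlation of only 0.00491. With the mouse as a fixed block the standard error was 0.836, and the adjusted p in limma were 0.552, 0.705 and 0.789. That crypts miss the threshold where enteroids pass it is not shown to be a difference between them.

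The other Defa genes followed the same direction. Besides the 8, those with a mean of at least 10 at some time were Defa2, Defa21, Defa22, Defa23, Defa26, Defa28, Defa30, Defa33, Defa34, Defa36, Defa39, Defa40, Defa41, Defa43 and the pseudogene Defa-ps1. Of the 14 tested in crypts 0 were called, all 14 with an unadjusted limma p under 0.05. At day 1, 14 of 14 were lower, and at day 3, 15 of 15. Of all genes tested, 3.15%, 28.9% and 29.1% were lower in crypts, at day 1 and at day 3. Their log2 fold changes lay between -5.72 and -3.75 in crypts, between -6.90 and -3.32 at day 1 and between -5.47 and -3.91 at day 3. The 8 chosen genes made up 54.6% to 59.1% of the Defa sum in WT crypts and 68.9% to 70.4% in WT day 3 enteroids.

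Other Paneth cell genes were taken from a list of 22 products, of which 21 were listed. In crypts 3 of 20 tested were lower and 0 higher, against 3.15% and 1.58% of all genes. These were Wnt3, a Wnt ligand that Paneth cells supply to stem cells (55.6, 68.3 and 93.2 in WT against 1.88, 11.4 and 0), the Notch ligand gene Dll4 (427, 333 and 281 against 111, 160 and 183) and the pentraxin gene Mptx1. Lyz1, the Paneth cell lysozyme, was at 56473, 59796 and 58268 in WT crypts and at 438, 15296 and 426 in Mtgr1-/- ones, a log2 difference of -5.36 (adjusted p = 0.0734 in limma). Mmp7, which encodes the protease that activates the defensin precursors, was at 2022, 2368 and 2572 against 36.7, 941 and 30.5 (log2 fold change -4.48, adjusted p = 0.0975 in limma). Mouse 2 was thus the highest Mtgr1-/- library for Lyz1 and Mmp7 as well.

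In enteroids 14 of 19 such genes were lower and 2 higher at day 1, and 16 of 20 lower and 3 higher at day 3. Of all genes tested, 28.9% were lower and 30.0% higher at day 1, and 29.1% and 29.9% at day 3. The list's median log2 fold change was -3.20, -3.45 and -3.09 in crypts, at day 1 and at day 3. Mmp7 was at 1821, 1754 and 1257 in WT and at 18.7, 140 and 13.2 in Mtgr1-/- day 1 enteroids, and at 2210, 2236 and 1894 against 144, 277 and 199 at day 3. It fell by 5.54 and 3.39 on the log2 scale (adjusted p = 0.000803 and 1.66e-05 in limma). The log2 fold changes at day 1 and day 3 were -5.38 and -5.36 for Lyz1, -4.34 and -4.59 for Itln1, which encodes a lectin that binds microbial sugars, and -4.89 and -3.81 for the antimicrobial ribonuclease gene Ang4. Wnt3 stood at 196, 200.4 and 175 in WT and at 3.41, 7.95 and 14.6 in Mtgr1-/- day 3 enteroids.

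Members that went the other way were few. The Wnt receptor gene Fzd5 and the lipase gene Pnliprp2 were higher at both enteroid times, and Reg3b, an antimicrobial lectin gene, at day 3. Reg3b was at 1196, 648 and 1310 in WT and at 3736, 67826 and 4473 in Mtgr1-/- day 3 enteroids, where mouse 2 stood far above the others. Pla2g2a, a secreted phospholipase of Paneth cells, was among the genes called lower at both enteroid times. It varied among WT mice, with 305, 261 and 11409 normalized counts in crypts and 451, 399 and 8585 at day 3. WT mouse 3 was thus the high animal for Pla2g2a at each time, including day 1 (455, 423 and 3606). Its Defa24 was the highest of the WT mice in crypts (2553 against 1692 and 1843 CPM) and at day 1 (1283 against 868 and 810), and the lowest at day 3 (1323 against 1511 and 1718).

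**Figure D4:**
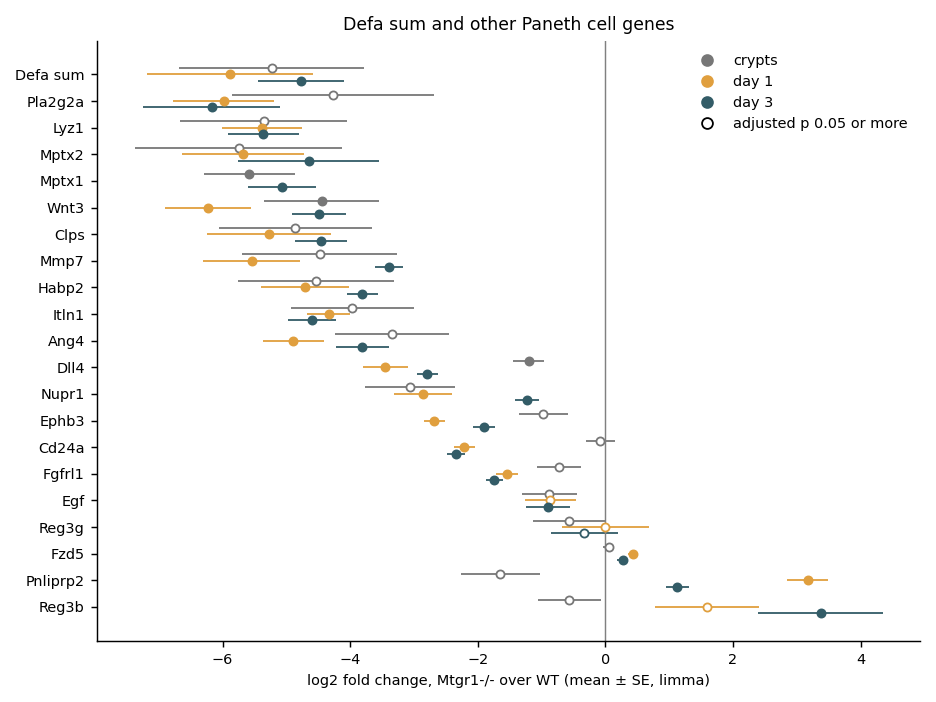
Log2 fold change of Mtgr1-/- over WT with its standard error (limma, 3 against 3 libraries) for the Defa sum and each tested Paneth cell gene, coloured by time, with open circles where the adjusted p was 0.05 or more. Most Paneth genes lie below 0 at every time, with wide errors and open circles in crypts, and Fzd5, Pnliprp2 and Reg3b lie above 0 in enteroids.

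Among 20 genes of Paneth fate and defensin regulation, 19 were tested. In crypts 4 were lower, namely Atoh1, Gfi1, Spdef and Creb3l1, and 0 higher, against 3.15% and 1.58% of all genes. Atoh1, which specifies the secretory lineage, was at 291, 243 and 337 in WT crypts and at 3.77, 17.1 and 16.3 in Mtgr1-/- crypts (log2 fold change -4.66, SE 0.53, adjusted p = 0.00568 in limma). Spdef, which acts in goblet and Paneth maturation, was at 342, 361 and 357 against 11.3, 40.9 and 27.4 (log2 fold change -3.86, adjusted p = 0.00542 in limma). Mouse 2 was close to mouse 3 in Atoh1 and the highest of its group in Spdef, and for both genes all 3 Mtgr1-/- libraries lay far below WT. Gfi1, a factor that keeps cells in the Paneth and goblet rather than the enteroendocrine branch, fell by 2.61 (adjusted p = 0.0296 in limma). Sox9, which Paneth cells need in order to form, was at 556, 386 and 441 against 523, 692 and 310 in crypts (adjusted p = 0.920 in limma).

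At day 1, 10 of these regulators were lower and 7 higher, and at day 3, 10 lower and 6 higher. The same 10 were lower at both times, namely Atoh1, Bhlha15, Creb3l1, Ephb3, Foxa3, Gfi1, Nod2, Sox9, Spdef and Tcf7. Against 28.9% lower and 30.0% higher of all genes at day 1, and 29.1% and 29.9% at day 3, the counts of higher regulators are near the background. Sox9 was at 1217, 1313 and 956 in WT and at 350, 425 and 343 in Mtgr1-/- day 1 enteroids, a fall by 1.63 on the log2 scale, and it fell by 1.18 at day 3. Nod2, a sensor of bacterial cell wall found in Paneth cells, was at 103, 115 and 97.8 in WT crypts and at 46.2, 59.0 and 56.9 in Mtgr1-/- crypts (adjusted p = 0.0522 in limma), and fell by 0.90 and 1.11 in enteroids. Tcf7, a TCF/LEF factor, fell by 1.43 and 1.38, while Tcf7l2, the main intestinal TCF, rose by 0.57 at day 1 and Ctnnb1, which encodes beta-catenin, rose by 0.37 and 0.57. Klf4 rose by 1.16 and 1.45 on the same scale. The list's median log2 fold change was -0.43, -0.90 and -1.11.

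Genes of processing, granules and secretion were called in both directions. In crypts 1 of 21 tested was lower, Syt7, a calcium sensor of vesicle release (142, 149 and 163 in WT against 7.53, 27.6 and 14.2). At day 1, 5 of 20 were lower and 8 higher, and at day 3, 4 lower and 7 higher. Of all genes, 3.15% were lower in crypts. At day 1, 28.9% were lower and 30.0% higher, and at day 3, 29.1% and 29.9%, so these counts are near the background. The medians were -0.04, 0.22 and 0.16 in crypts, at day 1 and at day 3. Besides Mmp7, those lower at both enteroid times were Syt7, Rab3d and Pdia6. Those higher at both were Furin, Slc39a4, Slc30a2, Vamp8, Rab7 and Mcoln1, of which the zinc transporter gene Slc39a4 rose by 1.43 and 0.99 and the protease gene Furin by 1.01 and 1.07. Of 14 beta-defensins and other antimicrobial genes, 8, 4 and 5 were tested. In crypts 0 were called, Nos2 was lower at both enteroid times, Lypd8 was higher at both and Duox2 was higher at day 3.

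Markers of other cell types were examined in the same libraries. Of all genes tested, 3.15% were called lower and 1.58% higher in crypts. These shares were 28.9% and 30.0% at day 1 and 29.1% and 29.9% at day 3. All 6 goblet markers tested were lower at each time, as were 5, 4 and 5 of 5 enteroendocrine markers. The summed goblet markers stood at 5938 to 6785 CPM in WT and 198 to 284 in Mtgr1-/- crypts, and mouse 2, at 250.2, lay between the other Mtgr1-/- mice. Enterocyte markers were higher at day 1 and day 3, 5 of 5 each, and 0 of 5 were called in crypts. Of 4 stem cell markers only Olfm4 was called lower in crypts, where Lgr5, Ascl2 and Smoc2 were not called and the median log2 fold change was -0.30. At both enteroid times 4 of 4 were lower. Of 3 tuft cell markers 0, 2 and 3 were lower. In crypts 0 were called higher either, but their median log2 fold change was 1.57. Their sum there was 31.9 to 41.9 CPM in WT and 51.0 to 161 in Mtgr1-/- libraries. Of the immune markers tested 0 were lower at any time, and 2 of 3 were higher at day 3. Of 2 stromal markers tested 0 were lower in crypts and 1 at each enteroid time. So few immune and stromal markers were tested that their counts cannot be told from the shares of all genes. The part of all these markers in the defensin result was not tested.

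Last, the genes whose level was most like that of the Defa sum were sought among 8966 genes with a mean of at least 10 CPM over the 18 libraries. By Pearson correlation of log2(CPM + 1), the 10 highest were Lyz1 (0.976), Itln1 (0.966), Mmp7 (0.963), Ang4 (0.963), Clps (0.935), Spink4 (0.932), 5330417C22Rik (0.919), Syk (0.916), 2610002M06Rik (0.915) and Smim6 (0.915). These are descriptions over 18 libraries from 6 mice, in which genotype and time set much of the spread. Mmp7 ranged from 53.2 to 99.7 CPM in WT and from 0.425 to 39.5 in Mtgr1-/- libraries, and Lyz1 from 1006 to 2350 against 8.5 to 643.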

How the data were processed

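The deposited signal values are gene counts that the authors divided by 1 size factor per library, in a separate table per time point. Per the study's methods, single 50-base reads from stranded mRNA libraries were trimmed with fastp 0.20.0 and quantified with Salmon 1.3.0 against GENCODE mouse release 21, and DESeq2 1.26.0 compared genotypes. The authors' own comparison columns (means, log2 fold changes and their errors, score, p-values and adjusted p-values, as deposited) were not used. Using limma 3.58.1, log2(normalized count + 1) was compared for genes whose mean reached 10 (trend, two-sided, Benjamini-Hochberg over all genes of the table, threshold 0.05). For the Defa sum, all Defa genes were replaced by their sum and the table was refitted. Mouse numbers come from the labels. The 3 libraries of a group are separate mice.

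All values of the 18 libraries were whole multiples of 1 step per library (100.0%, within 0.01 reads). In 16 this recovered reads, between 22035316 and 28621990. In 2 the step was too close to 1 to tell. These were the crypt library of WT mouse 2 and the day 3 library of Mtgr1-/- mouse 2. The count tests, edgeR 4.0.16 and DESeq2 1.42.0, were run on the other 16 libraries, and all 18 as an addition. The runs on 16 libraries thus lacked WT mouse 2 in crypts and Mtgr1-/- mouse 2 at day 3. The tests were run on simulated data first. Alternatives were the pseudocount, filter, scaling, variance trend, library weights, replicate block, leaving out each library and the count tests. Correlations of deviations between same-numbered WT and Mtgr1-/- libraries were positive in crypts (0.0764, 0.274 and 0.346) and at day 1 (0.116, 0.231 and 0.216). At day 3 they were near 0 (-0.00666, -0.00226 and -0.0156). Differently numbered pairs lay between -0.302 and 0.201 in crypts, between -0.190 and -0.0152 at day 1 and between -0.0967 and 0.105 at day 3.

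The 8 genes and the lists were chosen with earlier results of these data known. All 8 and the Defa genes with a mean of at least 10 are named, along with up to 8 list genes per comparison (those with the largest change past the threshold, plus Mmp7, Lyz1, Atoh1, Gfi1, Sox9, Spdef, Nod2 and Wnt3) and the 10 genes most like the Defa sum. Some list genes, such as Tcf7l2 and Ctnnb1, were named outside this rule, and not all genes within it are given with values. Genes named where a count was 5 or fewer were named after their values were seen, as was the grouping by coding length. The Paneth list leaves out 3 defensin entries. Symbols Defa38 to Defa43 carry identifiers that GENCODE release 21 names otherwise. Sums of near-identical genes join genes sharing at least 60% of 50-base windows and were added after seeing the data. Promoters are from RefSeq.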

Additional observations from a re-analysis of the deposited data

How the results depend on the processing

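At day 1 the count of alpha-defensins called lower was 7 under every alternative run on single genes, and the Defa sum passed the threshold under every alternative at day 1 and day 3. In crypts the count was 7 with library weights, whose estimate there did not converge, and 1 with DESeq2 on all libraries, and leaving out 1 library gave between 0 and 7. The Defa sum in crypts was -5.91 with library weights and between -7.13 and -4.20 leaving out 1 library. At day 3 the count was 5 with DESeq2 on all libraries, a setting chosen after seeing the data, and between 5 and 8 leaving out 1 library. Other Paneth genes lower in crypts numbered 1 without the variance trend, 16 with library weights, 0 with edgeR on recovered reads and between 0 and 10 leaving out 1 library. With the mouse number as a replicate block that count was 1, and the block changed none of the calls of the Defa sum (-5.23, -5.89 and -4.77) or the counts of alpha-defensins. Leaving out 1 mouse, the change of the difference of the Defa sum from crypts to day 3 lay between -0.54 and 1.51, the lowest without Mtgr1-/- mouse 3, where it reversed. DESeq2 gave the Defa sum in crypts no adjusted p on recovered reads. The cause of these shifts was not tested. Leaving out 1 library, the Defa sum lay between -7.52 and -4.40 at day 1 and between -5.62 and -3.95 at day 3. With 3 libraries a group, 1 mouse can move each value. Genes with no sequence of their own are limited by how their reads were assigned.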
